A study of Mus musculus with 27 samples.

Results

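The mouse genes named Zfp followed by a number encode zinc finger proteins, and their transcripts were followed across developing cortex and sorted postnatal neurons. Members were chosen by symbol alone: every array probe whose annotated symbol is Zfp and digits only, kept where its detection p-value was under 0.01 in at least 5 of the 27 arrays. The array carried 555 such probes for 304 genes, and 332 probes for 222 genes were kept, among 20498 kept probes of 10663 named genes. Of these genes 132 had 1 kept probe, 73 had 2, 15 had 3, 1 had 4 and 1 had 5, and 226 of the 332 probes were detected in all 27 arrays. The filter used detection in any group, so a gene seen only in P2 neurons was kept only because it is high there. This held for 1 kept probe each of Zfp266, Zfp72, Zfp938 and Zfp985, detected in the 5 P2 arrays and in no other. Most of the 27 arrays were embryonic, so a probe absent from P2 neurons could pass more easily. In no P2 array were 31 kept probes detected, and in no E16 embryo array 10. Probes of Zfp142, Zfp398, Zfp580 and Zfp869 were kept with exactly 5 arrays, all embryonic. Just outside the limit, with 4 arrays, lay probes of Zfp473, Zfp60, Zfp395 and Zfp652 and 1 more probe of Zfp365, which was detected in 4 P2 arrays alone.

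Each array held biotin-labelled RNA of 1 sample on an Illumina mouse BeadChip, and a signal is the mean brightness of a probe's beads. In order of age, the groups were Tbr2 conditional knockout (cKO) cortex of embryonic day 13 (E13; 5 arrays), E13 embryo (6), Tbr2 cKO cortex of E16 (6), E16 embryo (5) and neurons of the Tbr2 lineage that carried green fluorescent protein, sorted from cortex on postnatal day 2 (P2; 5). Tbr2 is the protein of Eomes, a transcription factor of the intermediate progenitors of cortical excitatory neurons. The letters WT stand in the column names of the embryo arrays, but their labels name neither genotype nor tissue, and the age field of the E16 embryo samples repeats E13, so groups were taken from the titles. No label names the Cre driver, the deleted exons or the strain, the protocol text on the sort is the same for all samples, and nothing says whether arrays of a group came from separate animals, so p-values measure the spread between these arrays.

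Most proteins of this kind carry fingers of the C2H2 type, short loops that each hold a zinc ion and read a few bases of DNA, strung together in tandem. Many also carry a KRAB domain, which recruits the corepressor Trim28 (KAP1) and with it histone methyltransferases, and this class is known for silencing retroelements and for guarding imprinted loci. The symbol also covers unrelated proteins, such as Zfp36 (tristetraprolin), whose fingers bind AU-rich RNA and hasten its decay.

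The median raw signal of an array was between 8.51 and 42.3, and 36.95% to 42.85% of its probes were detected. Eomes was not lower in the arrays labelled cKO: its probe ILMN_1251446 averaged 11.5 ± 0.0968 log2 units in E13 cKO (SD, n = 5), against 11.3 ± 0.267 in E13 embryo (n = 6). The E16 means were 11.1 ± 0.462 for cKO (n = 6) and 10.5 ± 0.321 for embryo (n = 5). Whether the probe lies inside the deleted part is not given, so it does not check the label. On the second principal component over genes the E13 embryo arrays lay at 5.26 to 15.8, and so did E13 cKO array 2 (10.7), while the other 4 E13 cKO arrays lay at -26.2 to -2.70. The E16 embryo arrays lay at -4.18 to 12.1, and within that range fell E16 cKO arrays 3 (5.89) and 2 (-2.80). Arrays are numbered by column order within a group, which is a name only.

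RefSeq promoter windows of mouse build GRCm38.p6, 250 bases before to 50 after the gene start, were found for 181 of the 222 genes. Those of 3 members are shown because these genes had the largest rises in P2 neurons (Zfp365, Zfp36) and a fall below detection there (Zfp423). The windows are Zfp365 at chr10:67912613-67912912, Zfp36 at chr7:28379179-28379478 and Zfp423 at chr8:87959546-87959845, all on the minus strand and written 5′ to 3′ along the gene. Zfp423 has 2 annotated starts, of which the outermost is shown. Capitals mark the GC box GGGCGG, read as CCGCCC on the other strand, the TATA box TATAAA and the ETS motif CCGGAAG.
Zfp365: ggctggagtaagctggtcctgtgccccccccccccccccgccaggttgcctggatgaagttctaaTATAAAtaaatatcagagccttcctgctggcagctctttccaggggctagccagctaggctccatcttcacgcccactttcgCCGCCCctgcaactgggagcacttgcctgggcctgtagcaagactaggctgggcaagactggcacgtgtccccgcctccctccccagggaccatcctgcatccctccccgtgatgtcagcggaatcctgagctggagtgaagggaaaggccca
Zfp36: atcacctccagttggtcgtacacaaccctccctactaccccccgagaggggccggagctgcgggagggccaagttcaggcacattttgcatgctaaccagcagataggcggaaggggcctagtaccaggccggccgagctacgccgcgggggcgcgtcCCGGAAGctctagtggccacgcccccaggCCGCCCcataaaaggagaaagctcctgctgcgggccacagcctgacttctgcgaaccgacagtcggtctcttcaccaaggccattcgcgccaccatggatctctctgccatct
Zfp423: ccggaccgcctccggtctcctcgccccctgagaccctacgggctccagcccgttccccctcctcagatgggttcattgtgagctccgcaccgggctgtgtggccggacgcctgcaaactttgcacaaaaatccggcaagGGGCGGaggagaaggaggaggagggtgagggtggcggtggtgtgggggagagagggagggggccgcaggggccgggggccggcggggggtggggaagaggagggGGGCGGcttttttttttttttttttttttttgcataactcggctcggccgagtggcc
The Zfp365 window held a TATA box and a GC box and 8 CpG dinucleotides, that of Zfp36 an ETS motif and a GC box and 21 CpG, and that of Zfp423 a pair of GC boxes and 21 CpG.

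6 motifs were searched on both strands, and no matches overlapped in the windows printed. Across the 181 member windows the GC box was in 51.9% and across the windows of 17492 protein-coding genes in 46.3%. The ETS motif CCGGAAG was in 22.7% of member windows and 11.9% of protein-coding windows, the NRF1 core GCGCATGCG in 6.08% and 2.41%, the cAMP response element TGACGTCA in 3.87% and 2.33%, CCAAT in 45.3% and 39.2%, and TATAAA in 7.73% and 13.3%. The median window held 16 CpG in members and 13 in protein-coding genes. The member genes had passed the detection filter, while the protein-coding genes were taken with no such filter. Detection and family therefore cannot be told apart in these values, which are descriptions of letters in a window.

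Most probes of the family were lower in P2 neurons than in E16 embryo. Of the 332 probes 46 were higher in P2 neurons (13.9%) and 198 lower (59.6%) by limma at an adjusted p under 0.05, while 88 did not pass. Over all 20498 probes 69.3% passed, 28.5% higher and 40.8% lower. The median log2 difference, P2 minus E16 embryo, was -0.54 for members and -0.16 for all probes, a gap of -0.382. After scaling arrays to 1 common median the all-probe median was close to 0 (0.000637), and the gap was -0.361. With that scaling 59 member probes were higher (17.8%) and 153 lower (46.1%), against 32% and 30.3% of all probes. At 2-fold or more, 13 member probes were higher (3.92%) and 80 lower (24.1%), while 14.5% of all probes were higher and 14.6% lower.

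The lower level was in every P2 array: the mean log2 signal over the members was 7.44 to 7.57 in the 5 P2 arrays and 7.93 to 8.001 in the 5 E16 embryo arrays. These means are not set against those of all probes, whose median difference was also negative (-0.156, against -0.538 for members). In 152 member probes (45.8%) every P2 array lay below every E16 embryo array, against 29.7% of all probes, and in 38 (11.4%) every P2 array lay above, against 22.4% of all probes. Among the 236 member probes detected in all 10 arrays of both groups, 33 were higher (14%) and 149 lower (63.1%), against 26.5% and 41.5% of the 14128 such probes in all. By gene, 117 of 222 had every kept probe lower (52.7%) and 28 every kept probe higher (12.6%), against 34.5% and 25.7% of all 10663 named genes. In 5 genes (Zfp266, Zfp386, Zfp451, Zfp560 and Zfp825) probes passed in opposite directions.

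Markers of several cell types also differed between P2 neurons and E16 embryo. Those of microglia (5 of 5 genes higher, summed linear signal 1994 to 3217 in P2 and 68.6 to 110 in E16 embryo), of endothelium (3 of 3 measured genes, 1787 to 2695 and 26.1 to 41.9) and of oligodendrocyte lineage (2 of 2, 811 to 12080 and 72.4 to 118) were higher. Aif1, Cx3cr1, C1qa, C1qb, Cldn5, Pecam1, Cdh5 and Pdgfra were detected in no E16 embryo array. Markers of intermediate progenitors (3 of 3 lower, 706 to 1384 and 10880 to 12580) and of cycling cells (3 of 4 lower, 201 to 1094 and 1364 to 2071) were lower in P2. Of 6 measured markers of cortical excitatory neurons 3 were higher and 3 lower, and their sum was 13520 to 17620 in P2 and 24890 to 30830 in E16 embryo. Of 4 interneuron and ventral forebrain markers 1 was higher and 0 lower (sums 227 to 5763 and 225 to 403), of 5 cortical progenitor markers 1 higher and 3 lower (459 to 1853 and 932 to 1243), of 3 thalamus markers 0 and 1 (83.7 to 133 and 182 to 232), and of 2 erythroid markers 0 and 0 (1634 to 7864 and 654 to 2192). The choroid plexus sum was 1732 to 18600 in P2 and 56.1 to 112 in E16 embryo, with 1 of 2 genes higher. The raw median was 17.6 to 42.3 in P2 and 10.97 to 13.7 in E16 embryo. The part of these in the members' results was not tested. Age, the sort and the deposited table cannot be told apart here, and in RNA of many cells fewer cells of a type and less RNA per cell cannot be told apart either.

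**Figure D1:**
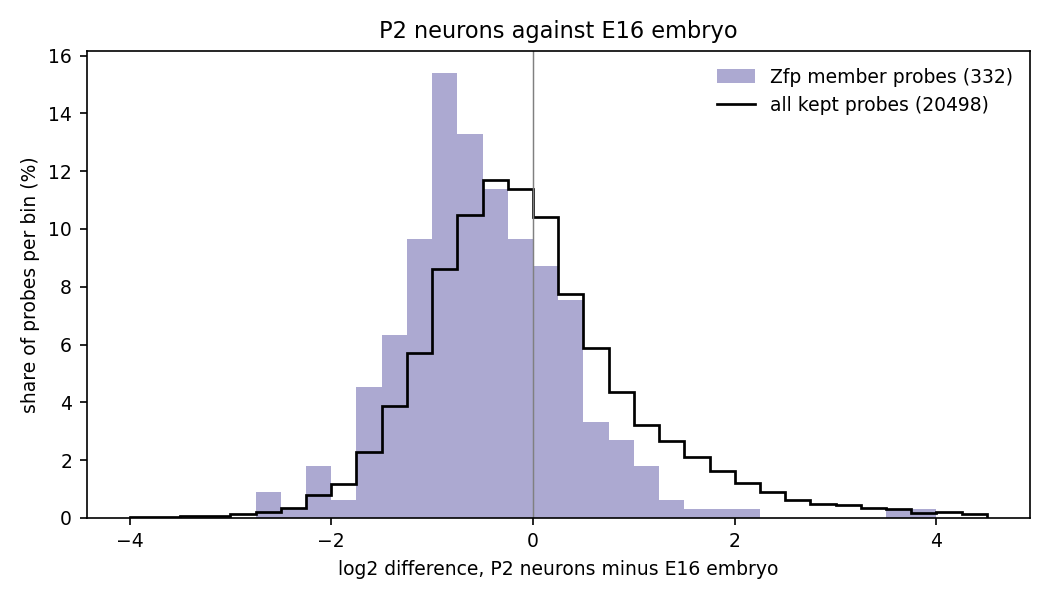
Share of probes (%, y axis) by log2 difference, P2 neurons minus E16 embryo (x axis, bins of 0.25), for the 332 Zfp member probes (filled) and all 20498 kept probes (line). The members' distribution lies to the left, with a median of -0.54 against -0.16, and is thinner on the right, where 13.9% of members and 28.5% of all probes passed as higher.

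Zfp365, which encodes a zinc finger protein known to bind the psychiatric risk factor Disc1, had the largest rise in P2 neurons. Its first probe (ILMN_1217442, chromosome 10) read 10.07, 9.85, 9.84, 9.16 and 9.20 in the P2 arrays, against 5.17, 5.56, 5.84, 5.93 and 5.97 in E16 embryo (log2 signal). Every P2 array lay far above every E16 embryo array, where only 3 of 5 detected the probe. The difference was 3.93 ± 0.229 (SE; adjusted p = 5.34e-14), a fold of 15.3. The second probe (ILMN_2966034) read 8.41, 8.62, 8.79, 8.74 and 8.64 in P2 neurons and 4.92, 5.25, 5.24, 5.23 and 4.77 in E16 embryo. No E16 embryo array detected it, so it was at least 7.35-fold higher in P2 neurons (fitted difference 3.56 ± 0.176 (SE; adjusted p = 2.03e-15)).

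Zfp36, the RNA decay factor and a gene known to be induced within minutes of many stimuli, read 9.41, 9.96, 9.63, 9.22 and 9.17 in P2 neurons, against 7.58, 7.52, 6.27, 7.33 and 7.48 in E16 embryo. The groups did not overlap, and E16 embryo array 3 was the lowest. The difference was 2.24 ± 0.323 (SE; adjusted p = 9.29e-07), 4.73-fold higher. Zfp457 read 7.99, 7.71, 8.25, 8.53 and 8.80 in P2 neurons, against 6.18, 6.63, 6.53, 6.15 and 6.54 in E16 embryo. All P2 arrays were above all E16 embryo arrays, with a difference of 1.85 ± 0.294 (SE; adjusted p = 3.93e-06). Zfp871 read 9.69, 9.83, 9.55, 9.45 and 9.71 in P2 neurons, against 8.25, 8.22, 8.27, 7.44 and 7.73 in E16 embryo, again without overlap and with a difference of 1.66 ± 0.183 (SE; adjusted p = 1.04e-08).

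Zfp703, a member of the NET family of zinc finger repressors, had the largest fall. Probe ILMN_2466489 (chromosome 8) read 5.61, 5.92, 5.97, 5.62 and 5.68 in P2 neurons, against 8.18, 8.13, 8.75, 8.50 and 8.64 in E16 embryo, a difference of -2.68 ± 0.139 (SE; adjusted p = 5.42e-15) or 6.41-fold lower. The groups lay far apart, and 4 of 5 P2 arrays detected the probe. The other probe differed by -2.58 ± 0.197 (SE; adjusted p = 1.24e-11).

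Zfp423, a protein with many fingers that binds Ebf factors and Smads and is needed for cerebellar development, was not detected in any P2 array. Probe ILMN_3131693 read 5.07, 5.05, 5.14, 4.89 and 4.996 there, against 7.37, 7.52, 7.74, 7.76 and 7.39 in E16 embryo. All 5 E16 embryo arrays detected it, so the gene was at least 4.07-fold lower in P2 neurons (fitted -2.53 ± 0.203 (SE; adjusted p = 2.97e-11)), and by probe ILMN_2469366 at least 3.08-fold lower (adjusted p = 5.26e-09). Its close relative Zfp521 read 6.90, 7.52, 8.62, 7.60 and 7.01 in P2 neurons, against 9.32, 9.43, 9.36, 8.82 and 9.19 in E16 embryo. The P2 arrays were spread more widely, with array 3 the highest, but stayed below every E16 embryo array (difference -1.69 ± 0.302 (SE; adjusted p = 2.03e-05)).

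Zfp219, known in cartilage as a partner of Sox9, read 9.09, 9.17, 10.07, 8.98 and 8.26 in P2 neurons, against 11.68, 11.61, 11.58, 11.72 and 11.27 in E16 embryo, with no overlap and a difference of -2.46 ± 0.209 (SE; adjusted p = 9.38e-11). Its second probe differed by -2.23 (adjusted p = 1.9e-11). Zfp646 read 5.21, 4.92, 5.21, 5.29 and 4.74 in P2 neurons, where no array detected it, and 7.18, 7.41, 7.45, 7.63 and 6.93 in E16 embryo. It was at least 3.45-fold lower in P2 neurons (adjusted p = 9.27e-13). Zfp663, detected in 2 of 5 P2 arrays and all E16 embryo arrays, differed by -2.08 ± 0.151 (SE; adjusted p = 4.29e-12), and Zfp618, detected in no P2 array, was at least 1.52-fold lower (adjusted p = 1.57e-07).

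**Figure D2:**
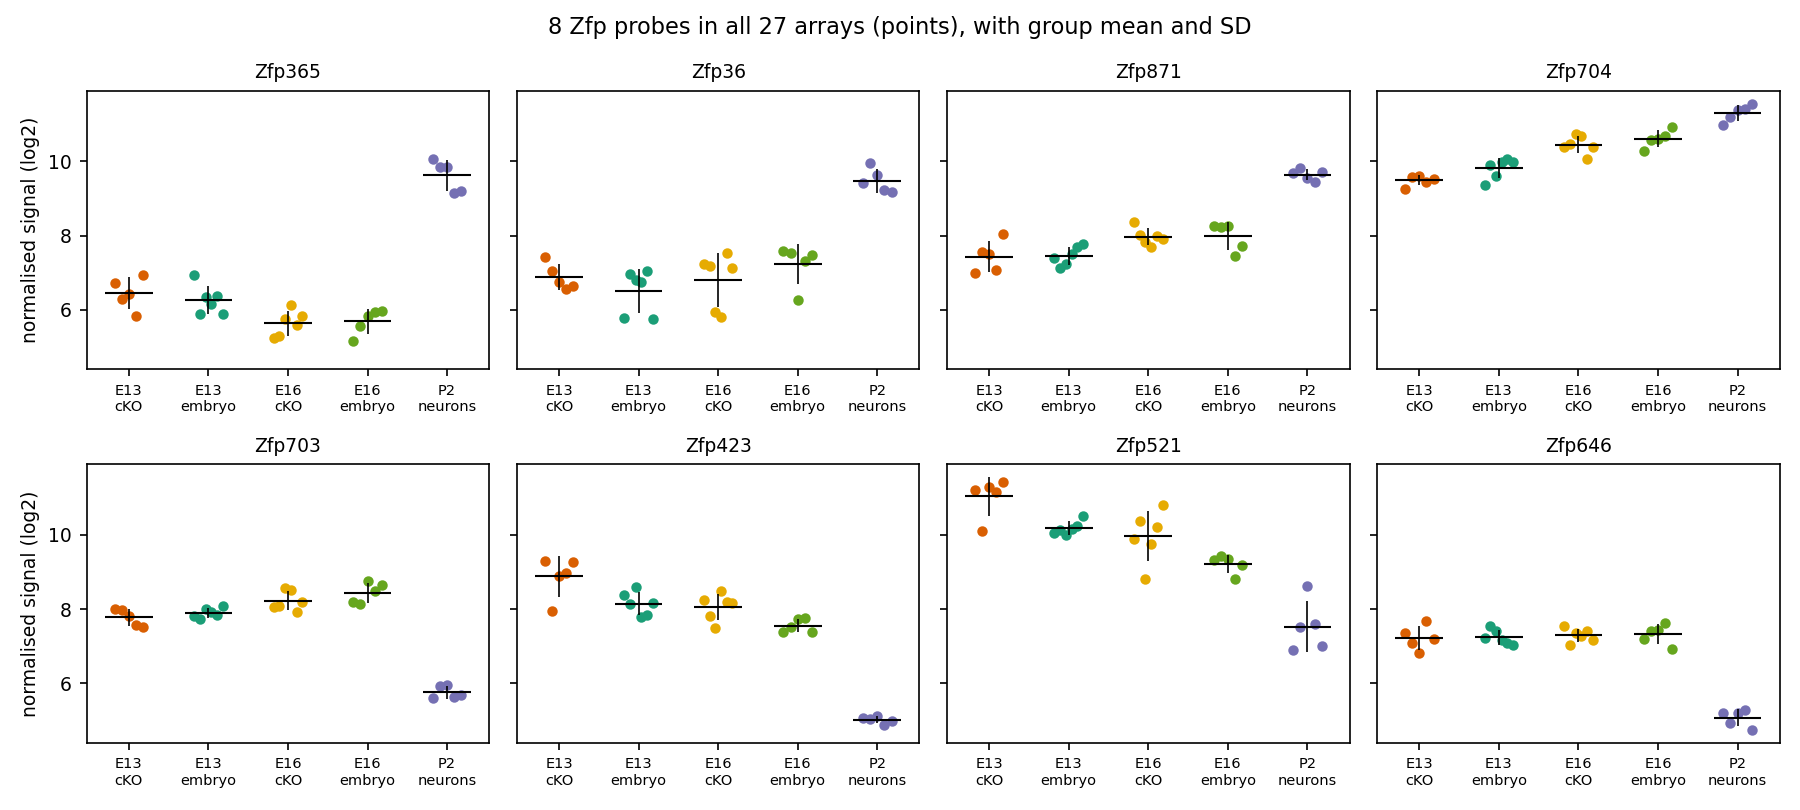
Normalised log2 signal (y axis) of 8 Zfp probes in all 27 arrays, by group from E13 cKO to P2 neurons (x axis). Each point is 1 array, the horizontal bar the group mean and the vertical bar its SD. Zfp365, Zfp36 and Zfp871 are highest in the 5 P2 arrays, and Zfp703 and Zfp646 are low there. By group means this Zfp704 probe is higher at E16 than at E13 and highest in P2 neurons. Zfp423 and Zfp521 are lower at E16 than at E13 and lowest in P2 neurons.

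The list of members with a role in neural development had 13 of 19 genes measured, by 20 probes. Against E16 embryo 5 probes were higher in P2 neurons (25%) and 10 lower (50%), beside 28.5% and 40.8% of all probes. The median was -0.59, beside -0.16 over all probes. The lower ones were the probes of Zfp703, Zfp423, Zfp219 and Zfp521 and those of Zfp536 (-1.31 ± 0.164 (SE; adjusted p = 9.65e-08)), a repressor of neuronal differentiation, of Zfp335 (-1.35 ± 0.143 (SE; adjusted p = 5.37e-09)), which is tied to human microcephaly, and 1 of 3 probes of Zfp292 (-0.95 ± 0.088 (SE; adjusted p = 4.45e-10)). The higher ones were both probes of Zfp365, Zfp711 (0.60 ± 0.173 (SE; adjusted p = 0.0034)), an X-linked gene tied to human intellectual disability, and both probes of Zfp644 (differences 0.38 and 0.55; adjusted p = 0.0118 and 0.0324). For probe ILMN_1257573 the call was lost when single arrays of either group were left out (lowest difference 0.41 and adjusted p = 0.111, without E16 embryo array 5).

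Of the RNA-binding list 7 of 9 genes were measured by 13 probes, with a median of 0.11. Of these probes 4 were higher (30.8%) and 4 lower (30.8%) in P2 neurons, beside 28.5% and 40.8% of all probes. Beside Zfp36, a pair of Zfp326 probes was higher (0.65 ± 0.154 (SE; adjusted p = 0.000595) for ILMN_2481389), from a gene that links splicing to transcription, and its remaining probe gave 0.11 (adjusted p = 0.469). The fourth, of Zfp638, gave 0.47 ± 0.166 (SE; adjusted p = 0.0139). Lower were Zfp598, which marks collided ribosomes for quality control (-1.02 ± 0.152 (SE; adjusted p = 1.6e-06)), both probes of the double-stranded RNA binder Zfp346 (-0.62 and -0.67; adjusted p = 4.74e-06 and 0.00197) and 1 of 2 probes of the spindle protein Zfp207 (-0.34 ± 0.11 (SE; adjusted p = 0.00777)), which did not pass after common-median scaling (-0.28, adjusted p = 0.126). Without E16 embryo array 4 or P2 array 5 the Zfp638 call was lost (differences 0.36 and 0.38).

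Of the list of stem cell, imprinting and retroelement factors, 5 of 11 genes were measured by 6 probes (median 0.37). Of these probes 3 were higher in P2 neurons (50%) and 0 lower, beside 28.5% and 40.8% of all probes. Zfp809, which silences endogenous retroviruses through Trim28, read 6.82, 6.98, 6.89, 6.75 and 7.32 in P2 neurons and 6.23, 6.02, 6.24, 5.99 and 5.94 in E16 embryo. Every P2 array was above every E16 embryo array, and the difference was 0.86 ± 0.148 (SE; adjusted p = 1.17e-05). Zfp961 gave 0.86 ± 0.252 (SE; adjusted p = 0.00397), with 3 of 5 E16 embryo arrays detecting it, and 1 of 2 probes of the pluripotency factor Zfp281 gave 0.48 ± 0.13 (SE; adjusted p = 0.00216). With 6 probes the list is short. Of the general promoter factors, 4 of 9 genes were measured by 6 probes, with 2 higher (Zfp281 and 1 of 2 probes of Zfp148) and 2 lower (Zfp91, -0.54 ± 0.121 (SE; adjusted p = 0.000301), and Zfp202, -0.34 ± 0.128 (SE; adjusted p = 0.0216)). That is 33.3% in each direction, beside 28.5% and 40.8% of all probes. The calls of that Zfp148 probe (0.74 ± 0.291 (SE; adjusted p = 0.0266)) and of Zfp202 were lost when single arrays were left out, the first with a difference of 0.51 without E16 embryo array 5 and the second with -0.25 without P2 array 4. After common-median scaling Zfp202 gave -0.11 (adjusted p = 0.583).

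Many Zfp genes lie in tandem clusters. Among 166 probes of genes with a Zfp neighbour in the RefSeq order, 19 were higher in P2 neurons and 108 lower (65.1%, median -0.64). Among the 166 probes without, 27 were higher and 90 lower (54.2%, median -0.42). The difference between these classes was not tested. By chromosome, 59 of the 222 genes lay on chromosome 7, where 60 of 82 member probes were lower in P2 neurons (73.2%), against 49% of all probes placed there. On chromosome 8, 22 of 30 were lower (73.3%, against 45.4%), on chromosome 13, 13 of 23 (56.5%, against 36.5%), and on chromosome 17, 9 of 27 (33.3%, against 52.4%). Some other chromosomes had like or larger contrasts. Lower were 11 of 13 on chromosome 18 (84.6%, against 34%), 9 of 13 on 2 (69.2%, against 41.8%) and 16 of 24 on 6 (66.7%, against 41.1%). Besides chromosome 17, members had the smaller share on chromosomes 3, 10 and 16 (14.3%, 25% and 0%, against 33.7%, 41.1% and 39.8%). These chromosomes were chosen after their values were seen, and the differences were not tested.

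Other zinc finger families, chosen by symbol, stood as follows against E16 embryo, where 28.5% of all probes were higher and 40.8% lower. Of the 21 Zscan and Zkscan probes, from genes that share the SCAN domain, 0 were higher and 18 lower in P2 neurons (median -0.90). The other 3 did not have an unadjusted p under 0.05 either. Of 39 Zbtb probes, from factors that pair fingers with a BTB domain, 5 were higher and 19 lower (median -0.23), and of 18 Klf probes 10 were higher and 5 lower (median 0.41). Among 17 measured corepressor partners of the KRAB class, 16 of 29 probes were lower (55.2%) and 6 higher (20.7%), beside 40.8% and 28.5% of all probes. Trim28, the scaffold that KRAB domains bind, was chosen after its values were seen. It averaged 11.64 ± 0.136 in P2 neurons and 12.85 ± 0.106 in E16 embryo (SD, n = 5 each), a difference of -1.21 ± 0.0969 (SE; adjusted p = 3.1e-11). Chd4, of the NuRD complex, was lower by 4 of 4 probes, with differences of -1.72, -1.29 and -1.12 by the 3 that all P2 and E16 embryo arrays detected and at least 1.12-fold by the other, which no P2 array detected. Uhrf1, which reads methylated DNA at replication, differed by -1.98 (adjusted p = 7e-07), with an SD of 1.02 over the P2 arrays. The probes of Atf7ip, which stabilises the methyltransferase Setdb1, differed by -1.57 and -0.29 (adjusted p = 3.08e-12 and 0.0323). Atrx, a remodeller of heterochromatin, was higher by 1.73 by a probe that 1 of 5 E16 embryo arrays detected (adjusted p = 1.29e-06) and at least 1.08-fold by one that none of them detected (adjusted p = 0.0017). Every kept probe of Cbx3 was also higher, by 0.58, 0.75 and 0.82 (adjusted p = 0.00819, 9.88e-05 and 0.00516). Cbx5 was higher by 0.54 (adjusted p = 0.0207). Cbx3 and Cbx5, too, were chosen after their values were seen.

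**Figure D3:**
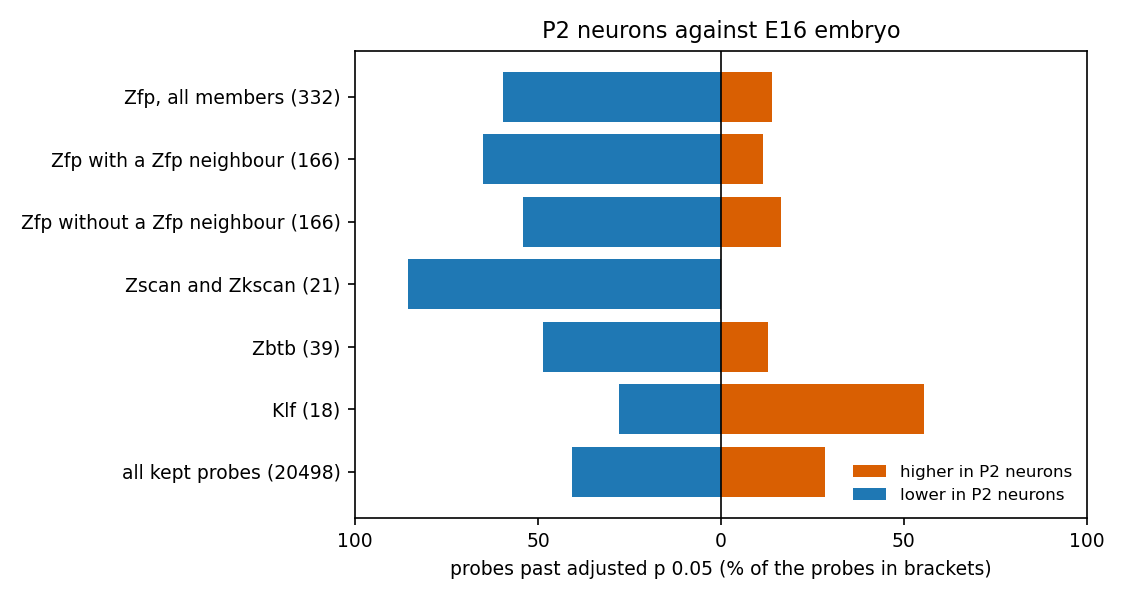
Percent of probes that passed as higher (right) or lower (left) in P2 neurons than in E16 embryo (x axis), by family (rows, number of probes in brackets). The lower side is the longer one in the 3 Zfp rows and in Zscan and Zkscan (85.7%, with 0% higher), and the Klf row leans the other way (55.6% higher, 27.8% lower), beside 28.5% and 40.8% over all kept probes.

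The RefSeq windows of the genes that moved as a whole differed in median CpG number, with overlapping quartiles. The 88 genes with a window and every probe lower in P2 neurons had a median of 18 CpG per window (quartiles 13 and 23), and the 27 with every probe higher had 12 (8 and 18). The ETS motif was in 20.5% of the first (18 windows) and 29.6% of the second (8), and the NRF1 core in 9.09% (8) and 3.7% (1). These are descriptions with no test.

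P2 neurons were also set against E13 embryo, a comparison that shares the P2 arrays. There 60 member probes were higher (18.1%) and 187 lower (56.3%), with 71.5% of all probes passing, 30% higher and 41.5% lower, and medians of -0.48 and -0.14. Zfp365 differed by 3.35 and 3.02, Zfp36 by 2.96 ± 0.309 (SE; adjusted p = 3.28e-09), Zfp871 by 2.19 ± 0.175 (SE; adjusted p = 2.09e-11) and Zfp457 by 1.93 ± 0.281 (SE; adjusted p = 9.77e-07). Zfp423 was at least 6.14-fold and at least 4.42-fold lower by its probes (adjusted p = 1.37e-13 and 2.32e-11). Zfp521 differed by -2.65 ± 0.289 (SE; adjusted p = 7.14e-09), Zfp663 by -2.61 ± 0.144 (SE; adjusted p = 1.27e-14) and Zfp219 by -2.59 ± 0.2 (SE; adjusted p = 1.07e-11). Of the neural development list 7 probes were higher and 11 lower, of the RNA-binding list 1 (Zfp36) and 3, of the stem cell and retroelement list 3 and 0, and of the promoter factors 3 and 1.

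The step between the embryonic ages was smaller. In E16 embryo against E13 embryo 34 member probes were higher (10.2%) and 17 lower (5.12%), where 20.4% of all probes passed, 9.72% higher and 10.7% lower. In E16 cKO against E13 cKO 57 were higher (17.2%) and 15 lower (4.52%), where 21.5% of all probes passed, 10.2% higher and 11.3% lower. The excess of rises over falls depended on the scaling. With arrays scaled to 1 common median, 11 were higher (3.31%) and 15 lower (4.52%) in embryo, against 5.51% and 8.55% of all probes. In cKO 16 were higher (4.82%) and 17 lower (5.12%), against 5.09% and 10%. In both genotypes the share of falls was smaller among members than among all probes, before and after this scaling. The median difference of members stood 0.0876 above that of all probes in embryo and 0.129 above in cKO, and 0.0838 and 0.136 above with that scaling. No member in embryo, and 1 in each direction in cKO, passed at 2-fold or more.

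Cell type markers moved with age as well. All 4 measured cycling markers were lower at E16 in both genotypes, with sums of 1505 to 2620 in E16 cKO and 5345 to 6136 in E13 cKO, and of 1364 to 2071 in E16 embryo and 3923 to 5406 in E13 embryo. Of 3 thalamus markers 1 was lower in cKO and 2 in embryo, with sums of 150 to 949 in E16 cKO and 935 to 3123 in E13 cKO, and of 182 to 232 in E16 embryo and 565 to 1432 in E13 embryo. Of 2 markers of choroid plexus and hem 2 were lower in cKO and 1 in embryo (39.4 to 147 in E16 cKO and 218 to 6295 in E13 cKO, 56.1 to 112 in E16 embryo and 160 to 478 in E13 embryo). Of 3 intermediate progenitor markers 0 passed in cKO and 2 were lower in embryo, of 5 cortical progenitor markers 1 was lower in each, and of 6 excitatory neuron markers 2 were higher in cKO and 3 lower in embryo. The sums of excitatory neuron markers were 21630 to 31420 in E16 cKO and 20290 to 27370 in E13 cKO, and 24890 to 30830 in E16 embryo and 26550 to 34980 in E13 embryo. Of 2 erythroid markers 1 was higher in embryo (654 to 2192 in E16 embryo and 30.3 to 876 in E13 embryo) and 0 passed in cKO. Microglia, endothelial, oligodendrocyte and interneuron markers did not pass. The part of these in the age differences of the members, those of Zfp521 and Zfp423 among them, was not tested.

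The age comparisons of the genotypes use different arrays. Of the rises 26 were shared, 45.6% of those in cKO and 76.5% of those in embryo, of the falls 9 (60% and 52.9%), and 0 probes passed in opposite directions. The differences of 266 of 332 probes had the same sign. Across the 332 probes, which share arrays and are not independent, Pearson's r was 0.76 and Spearman's rho 0.717, and r was 0.868 over all 20498 probes.

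**Figure D4:**
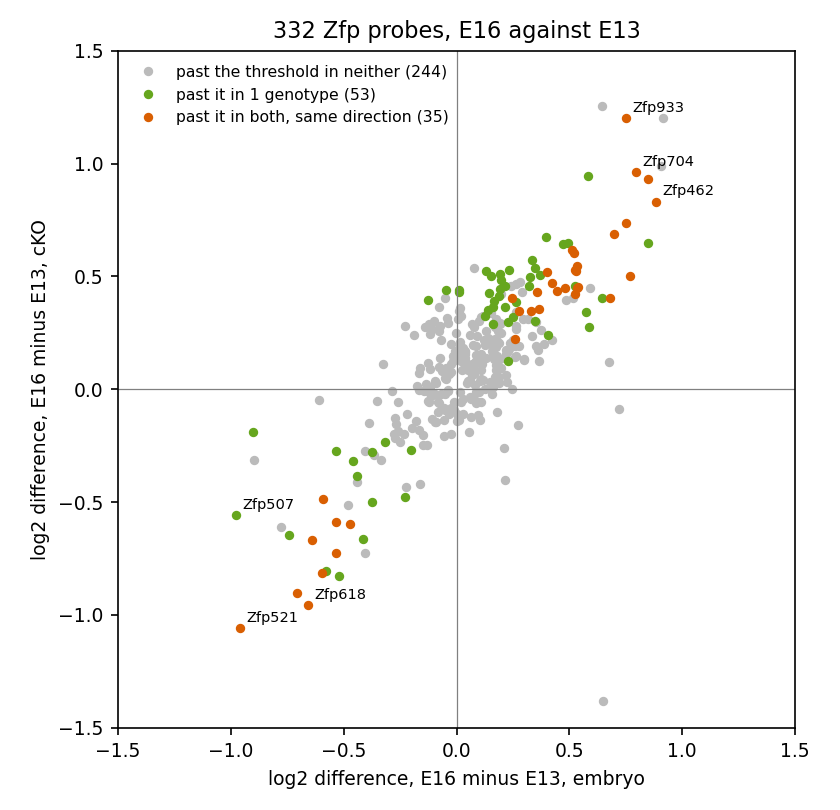
Log2 difference, E16 minus E13, in cKO (y axis) and embryo (x axis) for the 332 Zfp probes. Orange points passed in both genotypes in the same direction (35), green in 1 (53) and grey in neither (244); none passed in opposite directions, and Zfp704, Zfp933 and Zfp462 lie at the upper right and Zfp521 and Zfp618 at the lower left.

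The rises at E16 were led by Zfp704, Zfp462, Zfp148, Zfp827 and, in cKO, Zfp933. Zfp704 (ILMN_1225146) read 10.07 at the lowest, 10.42 at the median and 10.73 at the highest in E16 cKO, against 9.27, 9.59, 9.61, 9.46 and 9.52 in E13 cKO, and 10.28, 10.58, 10.59, 10.67 and 10.93 in E16 embryo, against 9.36 at the lowest, 9.94 at the median and 10.06 at the highest in E13 embryo. The ages did not overlap in either genotype, with differences of 0.96 ± 0.138 (SE; adjusted p = 9.49e-06) and 0.80 ± 0.138 (SE; adjusted p = 0.000128). In P2 neurons this probe read 10.97, 11.19, 11.40, 11.41 and 11.54, a difference of 0.69 ± 0.144 (SE; adjusted p = 0.000143) from E16 embryo, while the other probe, which rose at E16 in both genotypes, gave -0.12 there (adjusted p = 0.635). Zfp462, a chromatin factor with ties to neurodevelopmental disorders in people, differed by 0.83 ± 0.185 (SE; adjusted p = 0.00162) in cKO and 0.88 ± 0.185 (SE; adjusted p = 0.000982) in embryo, where E16 array 4 (6.38) fell within the E13 range. Zfp148, which binds GC-rich promoters, differed by 0.74 ± 0.15 (SE; adjusted p = 0.000705) and 0.75 ± 0.15 (SE; adjusted p = 0.000629) by probe ILMN_2427349. Its other probe passed in embryo alone (0.85 ± 0.279 (SE; adjusted p = 0.0309); in cKO 0.65, adjusted p = 0.0989), and lost the call when single arrays were left out (lowest difference 0.68, without E16 embryo array 1).

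Zfp827 differed by 0.50 ± 0.141 (SE; adjusted p = 0.0113) in cKO (0.44 and adjusted p = 0.0666 after common-median scaling) and 0.77 ± 0.141 (SE; adjusted p = 0.000247) in embryo. Zfp933 (ILMN_2703061) read 8.17 at the lowest, 8.66 at the median and 8.87 at the highest in E16 cKO and 7.49, 5.96, 7.62, 7.77 and 8.20 in E13 cKO. E13 cKO array 2 was far below the other 4, and array 5 lay just above the lowest E16 array. The difference was 1.20 ± 0.267 (SE; adjusted p = 0.00164) in cKO and 0.75 ± 0.267 (SE; adjusted p = 0.0467) in embryo. The embryo call was lost without most single arrays (lowest difference 0.65, without E13 embryo array 1), after common-median scaling and without normexp background correction (adjusted p = 0.0902 and 0.0681). Its second probe gave 0.95 and 0.58 (adjusted p = 0.00406 and 0.0797). Zfp202 rose in both genotypes (0.45 ± 0.123 (SE; adjusted p = 0.00919) in cKO and 0.48 ± 0.123 (SE; adjusted p = 0.0059) in embryo), but passed in neither after common-median scaling (adjusted p = 0.107 and 0.0811). Of the 3 Zfp292 probes 2 rose in cKO (0.54 and 0.53; after common-median scaling adjusted p = 0.0955 and 0.0775) and 0 in embryo. Of the neural development list 4 probes rose (20%) and 6 fell (30%) in cKO, and 3 rose (15%) and 4 fell (20%) in embryo. Over all probes 10.2% rose and 11.3% fell in cKO, and 9.72% rose and 10.7% fell in embryo. Of the RNA-binding list 0 passed in cKO, where 3 had an unadjusted p under 0.05 (23.1%, against 33.1% of all probes). In embryo 3 fell, namely a pair for Zfp326 and 1 of Zfp207. The Zfp326 calls were lost without single arrays (lowest differences -0.38 and -0.36, without E13 embryo array 3) and that of Zfp207 after common-median scaling (-0.41, adjusted p = 0.0723). Of the promoter factors 2 rose in cKO and 3 in embryo, and of the stem cell and retroelement list 0 passed in either genotype, with 0 unadjusted.

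Zfp521 had the largest fall that was shared. It read 8.82 at the lowest, 10.04 at the median and 10.80 at the highest in E16 cKO, against 11.20, 10.10, 11.30, 11.15 and 11.42 in E13 cKO, and 9.32, 9.43, 9.36, 8.82 and 9.19 in E16 embryo, against 10.001 at the lowest, 10.14 at the median and 10.51 at the highest in E13 embryo. The embryo ages did not overlap, while 3 E16 cKO arrays lay above E13 cKO array 2. The differences were -1.06 ± 0.289 (SE; adjusted p = 0.0091) in cKO and -0.96 ± 0.289 (SE; adjusted p = 0.0187) in embryo, the second with an adjusted p of 0.0518 without E16 embryo array 4. Zfp423 fell in cKO by both probes (-0.82 ± 0.194 (SE; adjusted p = 0.00299) and -0.83, adjusted p = 0.00396) and in embryo by 1 (-0.59 ± 0.194 (SE; adjusted p = 0.0294); the other -0.52, adjusted p = 0.0715), a call lost when single arrays were left out (lowest difference -0.51, without E13 embryo array 3) and with runs of column numbers as a random block (adjusted p = 0.0896).

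Zfp618, a partner of the methylated-DNA reader Uhrf2, differed by -0.95 ± 0.155 (SE; adjusted p = 4.77e-05) in cKO, where 3 of 6 E16 arrays and all E13 arrays detected it, and by -0.66 ± 0.155 (SE; adjusted p = 0.00285) in embryo. Zfp941 differed by -0.90 ± 0.234 (SE; adjusted p = 0.006) in cKO and -0.71 ± 0.234 (SE; adjusted p = 0.0313) in embryo. Zfp24, needed for myelination, read 6.48, 6.71, 6.30, 6.35 and 6.87 in E16 embryo, against 7.08 at the lowest, 7.49 at the median and 7.78 at the highest in E13 embryo, without overlap (-0.90 ± 0.193 (SE; adjusted p = 0.0012)). In cKO the ages overlapped and the difference was -0.19 (adjusted p = 0.534). Zfp507 (-0.98 ± 0.322 (SE; adjusted p = 0.0313)) and Zfp553 (-0.74 ± 0.24 (SE; adjusted p = 0.0281)) passed in embryo alone, and in both the E16 arrays were split. For Zfp507 arrays 1 and 2 read 6.99 and 7.11, the other 3 between 5.50 and 5.88, and only 3 of 5 detected it. The difference between the genotypes passed for none of these genes.

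The split of Zfp507 followed the numbers in the column names. These fall into 5 runs among the embryonic arrays, each of 1 age and both genotypes, and E16 embryo arrays 1 and 2 come from the run 11 to 16, array 3 from 79 to 80 and arrays 4 and 5 from the run that starts at 91. On the second component over probes (12.8% of variance) the E16 arrays of the run 11 to 16 lay at -33.3 to -13.7 and those of the run from 91 at 21.7 to 32.0. What the numbers stand for is not given. With the runs as a random block 39 member probes passed in embryo and 62 in cKO. The embryo calls of Zfp507, Zfp941, Zfp326, Zfp365, Zfp933, Zfp871 and of 1 probe each of Zfp423 and Zfp148 were then lost (adjusted p = 0.056 to 0.0921), and those of Zfp507, Zfp553 and Zfp941 also without single arrays, with lowest differences of -0.79, -0.53 and -0.61.

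Set side by side over the 3 groups E13 embryo, E16 embryo and P2 neurons, members took different courses. The P2 arrays differ from the embryo arrays in sort and deposited table as well as in age, so these are not courses of age alone. At E13, E16 and P2, Zfp365 averaged 6.27 ± 0.388 (SD, n = 6), 5.69 ± 0.336 (SD, n = 5) and 9.62 ± 0.416 (SD, n = 5). Its first probe fell at E16 in cKO (-0.81 ± 0.219 (SE; adjusted p = 0.00885)) and did not pass in embryo (-0.58, adjusted p = 0.0636), and only 1 of 6 E16 cKO arrays detected it. Its second probe, which no E16 array detected, was at least 1.02-fold lower in E16 cKO (adjusted p = 0.00245). In embryo, where 2 of 6 E13 arrays detected it, it passed (adjusted p = 0.0249) but gives no fold, and the call was lost without E13 embryo array 2 or 4 or E16 embryo array 1 or 5 and after common-median scaling (adjusted p = 0.0619). Zfp703 averaged 7.90 ± 0.131 (SD, n = 6), 8.44 ± 0.275 (SD, n = 5) and 5.76 ± 0.173 (SD, n = 5) at E13, E16 and P2, highest in E16 embryo among these groups, with a rise of 0.54 ± 0.133 (SE; adjusted p = 0.00469) over E13 in embryo. Zfp827 had the same shape, with 8.91 ± 0.131 (SD, n = 6), 9.68 ± 0.256 (SD, n = 5) and 8.13 ± 0.347 (SD, n = 5). Zfp871 averaged 7.46 ± 0.251 (SD, n = 6), 7.98 ± 0.376 (SD, n = 5) and 9.65 ± 0.15 (SD, n = 5), with a rise at E16 (0.53 ± 0.175 (SE; adjusted p = 0.0331)) whose call was lost without single arrays (lowest difference 0.45, without E16 embryo array 3) and after common-median scaling (adjusted p = 0.1). Zfp663 was lower in each later group, with 8.27 ± 0.211 (SD, n = 6), 7.73 ± 0.295 (SD, n = 5) and 5.66 ± 0.229 (SD, n = 5). Zfp646 and Zfp219 did not pass between E13 and E16 in either genotype and were low in P2 neurons alone among these 3 groups. The steps share the E16 arrays, so their opposite or like signs are given as values alone.

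Between genotypes no member passed. At E13 cKO against embryo gave 0 of 332 member probes by limma, where 1.04% of all probes passed, 0.478% higher and 0.566% lower. At an unadjusted p under 0.05 stood 17 member probes (5.12%), against 8.25% of all probes. At E16 the comparison gave 0, where 0.283% of all probes passed, 0.146% higher and 0.137% lower. Unadjusted, 9 member probes (2.71%) and 6.26% of all probes were under 0.05. The test of whether the age difference depended on genotype gave 0, where 0.00976% of all probes passed, 0.00488% in each direction. Unadjusted, 7 member probes (2.11%) and 3.19% of all probes were under 0.05.

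The members nearest to the threshold at E13 were Zfp423 and Zfp521. Zfp423 (ILMN_3131693) read 9.30, 7.96, 8.90, 8.98 and 9.28 in E13 cKO, against 7.80 at the lowest, 8.15 at the median and 8.59 at the highest in E13 embryo. Of the 5 cKO arrays 4 lay above every embryo array, and array 2 lay among them. The difference was 0.73 ± 0.194 (SE; adjusted p = 0.0671), with a 95% interval of 0.33 to 1.13, and 0.74 ± 0.204 (SE; adjusted p = 0.0867) for ILMN_2469366. Zfp521 read 11.20, 10.10, 11.30, 11.15 and 11.42 in E13 cKO, against 10.001 at the lowest, 10.14 at the median and 10.51 at the highest in E13 embryo, again with array 2 alone within the embryo range, and differed by 0.85 ± 0.289 (SE; adjusted p = 0.232). At E16 these probes differed by 0.51 ± 0.194 (SE; adjusted p = 0.523), 0.43 and 0.75 ± 0.289 (SE; adjusted p = 0.54), with 5 of 6 cKO arrays above the embryo range for ILMN_3131693 and for Zfp521. Zfp24 at E16 gave 0.53 ± 0.193 (SE; adjusted p = 0.485).

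E13 cKO array 2 and E16 cKO array 3, picked from an earlier analysis, lay among the embryo arrays, so that their loss widens a gap by construction. On the second component E16 cKO array 2 (-2.80) also lay within the embryo range, but was kept. Without the picked pair both Zfp423 probes and Zfp521 passed at E13 (0.97, 0.96 and 1.09; adjusted p = 0.000614, 0.000114 and 0.00695). At E16 ILMN_3131693 (0.63, adjusted p = 0.0159) and Zfp521 (0.98, adjusted p = 0.0223) passed. Without E13 cKO array 2 alone 3 member probes passed at E13. A Zfp423 probe also passed at E13 without E13 embryo array 1 (ILMN_2469366, adjusted p = 0.0479), without E13 embryo array 3 (ILMN_3131693, adjusted p = 0.0443) and without E16 cKO array 3 (ILMN_3131693, adjusted p = 0.0409). Over 38 alternatives the difference of Zfp521 probe ILMN_1256012 at E13 stayed between 0.755 and 1.09 with adjusted p from 0.00695 to 0.518. The other Zfp521 probe did not pass the detection filter, and with no filter gave 0.301 (adjusted p = 1). Within runs of column numbers the cKO minus embryo difference of Zfp521 was 0.562 and 1.06 at E13 and 0.759, -0.537 and 1.25 at E16, the negative one from the run with 1 array of each genotype, the cKO one being array 3. For ILMN_3131693 these values were 0.37 and 0.957 at E13 and 0.592, -0.235 and 0.701 at E16. With the runs as a fixed block 0 members passed.

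Among markers of cell types at E13, 2 of 6 genes of cortical excitatory neurons were lower in cKO (sums 20290 to 27370 in E13 cKO and 26550 to 34980 in E13 embryo), and 1 of 3 of intermediate progenitors (12590 to 18970 and 10510 to 15110) and 1 of 3 of thalamus (935 to 3123 and 565 to 1432) were higher. The 2 markers of choroid plexus and hem did not pass (218 to 6295 and 160 to 478), nor did the 2 erythroid markers (275 to 29490 and 30.3 to 876) or any of the other lists. At E16 1 of 3 thalamus markers was higher in cKO (150 to 949 in E16 cKO and 182 to 232 in E16 embryo) and no other marker passed. The part of these in the values of Zfp423 and Zfp521 was not tested.

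**Figure D5:**
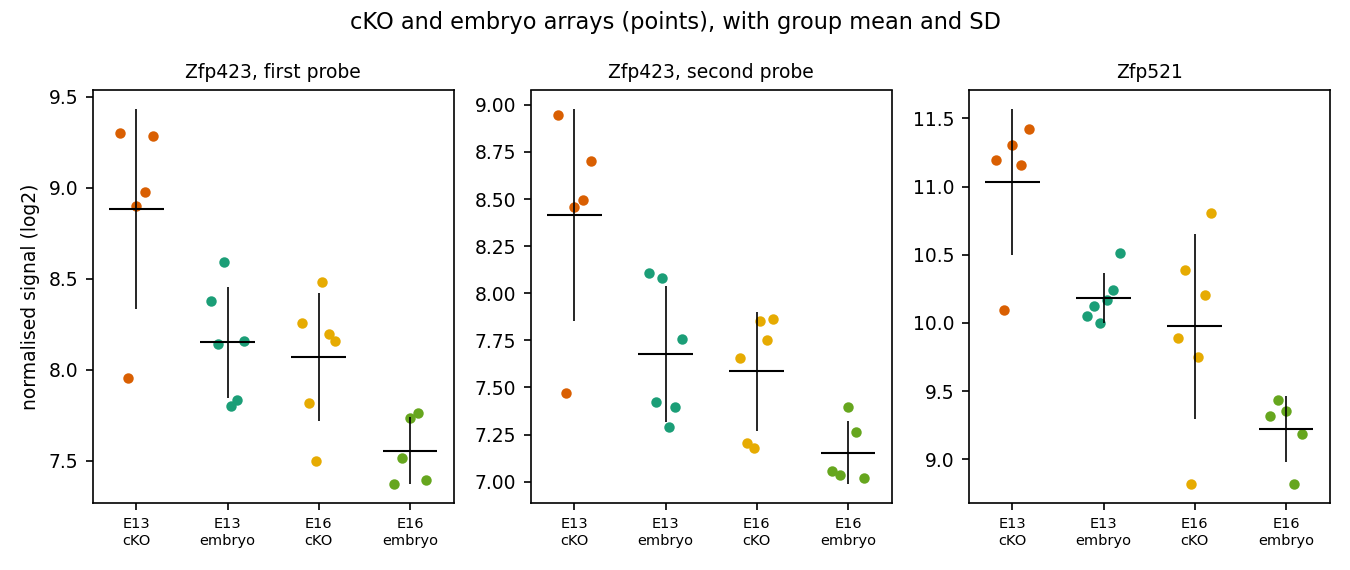
Normalised log2 signal (y axis) of both Zfp423 probes (first probe ILMN_3131693, second ILMN_2469366) and Zfp521 in the 22 embryonic arrays, with cKO left of embryo at each age (x axis). Points are arrays, horizontal bars means and vertical bars SD; 1 cKO array at each age, array 2 at E13 and array 3 at E16, lies at the level of the embryo arrays, and the other cKO arrays of the first Zfp423 probe and of Zfp521 lie above them.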

How the data were processed

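RNA of 27 samples was measured on Illumina BeadChips with 45281 probes. The deposited tables hold, per the file headers, non-normalized average signal intensities, which reach -50.8 and so carry a background subtraction, each with a detection p-value deposited beside it. The deposited series matrix holds log2 values with 1 common median (8.95) in every column, and what the authors did to make them is not given in the sources used here.

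Gene symbols came from the platform annotation, in which 34885 probes had 1 symbol, 18 several and 10378 none, and all 555 Zfp probes matched a RefSeq gene ID. From the 3 signal tables limma 3.58.1 in R 4.3.3 was used for normexp background correction (nec with detection p-values, offset 16), quantile normalisation over all arrays and log2. A probe was kept with detection p under 0.01 in at least 5 arrays. A mean per group was fitted by lmFit and eBayes, with Benjamini-Hochberg adjustment over all 20498 kept probes and a threshold of 0.05, so every adjusted p is limma's. A probe detected in no array of a group has only a bound there, taken from each array's lowest signal among detected probes. Column names give each array's group but not its replicate number. The number of arrays limits the precision. The script was tested on simulated data, in which 46 of 50 changes of 1 on the log2 scale were found for E16 against E13 embryo, 46 for cKO against embryo at E13 and 44 for P2 neurons against E16 embryo, and 23, 19 and 18 of 50 changes of 0.5. Of the 177, 175 and 170 calls there, 8, 12 and 8 were false. In the data 4182 probes passed for E16 against E13 embryo and 14197 for P2 neurons against E16 embryo. The shares found in simulation therefore need not hold for those comparisons.

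The genotypes lie in separate deposited tables, so genotype and table cannot be told apart. The members, gene lists and tests were chosen with earlier results of these data known. Named probes are the 5 largest rises and falls that passed in each comparison and every kept member of the lists, with up to 4 corepressor partners. Trim28, Cbx3 and Cbx5, and the values by chromosome, were chosen after they were seen. A split by KRAB domain was planned and not made, since protein sequences were not used here. Alternatives are given in the closing section.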

Additional observations from a re-analysis of the deposited data

Results flagged for a closer look

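The probes with the largest changes, with those of Zfp423 and Zfp521, were screened by Dixon's criterion in each group of 5 or 6 arrays. Probes named only from the lists were not screened. Among 125 such groups 4 held an array far from the rest of its group, and chance alone flags about 1 in 20 groups. In E13 cKO array 2, Zfp521 read 10.1 on the log2 scale, against 11.15 to 11.42 in the other 4 arrays, and Zfp933 (ILMN_1214422) read 5.44, against 6.798 to 7.326 in the others. In E16 embryo array 2, Zfp933 (ILMN_2703061) read 7.794, with the others at 8.64 to 8.833. In E16 embryo array 3, Zfp36 read 6.271, with the others at 7.329 to 7.585. The part of E13 cKO array 2 in the genotype comparison is given in the report by leaving it out.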

How the results depend on the processing

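The numbers of Zfp probes that passed were 51 (E16 against E13, embryo), 72 (the same in cKO), 0, 0 and 0 (genotype at E13, at E16, and interaction), 244 (P2 against E16 embryo) and 247 (P2 against E13 embryo). Common-median scaling gave 26 and 33 between the ages. The deposited matrix, which held 202 of the members, gave 154 and 153 for the P2 comparisons, and 1 probe per gene gave 165 and 164; both test fewer member probes. With no filter 1 probe (Zfp64, 0.74, adjusted p = 0.00807) passed between genotypes at E13. Leaving out E13 cKO array 2 and E16 cKO array 3 gave 3 at E13 and 2 at E16. Leaving out each array in turn, E13 cKO array 4 among them, gave 36 to 56 and 48 to 75 between the ages, 0 to 3 for genotype at E13, 0 to 0 at E16 and in the interaction, and 236 to 246 and 239 to 249 for P2. Replicate numbers stand only in the matrix, where the replicate block gave 39, 49, 0, 0, 0, 154 and 153. Same-numbered samples were on average no more alike than others: their deviations had r from -0.26 to 0.509 (median -0.00551), against a median of -0.00438 for other pairs. Whether the numbers pair samples is given by no label. A block by chip was not run because the column names give no chip. Blocking by runs of column numbers was chosen after seeing the data, and leaving out E13 cKO array 2 with E16 cKO array 3, or E13 cKO array 4, was chosen from an earlier analysis of the same arrays. Of the 119 changes of named probes that passed, 0 reversed under these settings, 23 lost the call without at least 1 single array, 18 with common-median scaling, 13 with no filter and 1 without normexp (Zfp933 in embryo). The cause of each lost call was not tested. Signal over background limits some probes: 28 members were detected in only 5 to 9 arrays.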
